A study of Drosophila melanogaster with 5 samples.

Results

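The genes that assign photoreceptor fates in the developing fly eye were followed in Drosophila cephalic complexes, that is, larval brain lobes together with the eye-antennal discs, the epithelia that form the adult eye and antenna. The genes were gl, sens, ro, lz, salm, salr, boss, sev, chp and cpo. They were found by matching the current symbol or a synonym of each gene to the annotation of the array, keeping probe sets with a single gene symbol. All 10 genes were measured, by 12 of the 18769 non-control probe sets of the array. cpo had 3 probe sets and every other gene had 1.

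Larvae of genotype lgl27S3/lglE2S31, which carry different null alleles of the polarity gene l(2)gl (lethal giant larvae, lgl), were compared at day 4 of their prolonged 3rd instar with FRT82B larvae at day 0. The groups held 3 lgl and 2 FRT82B arrays. Each array was made from a pool of 20 pairs of complexes, per the labels. No day 4 FRT82B and no day 0 lgl sample was compared, so genotype and age cannot be told apart. The alleles are present in every cell of the larva, so effects that arise in the disc, in the brain or elsewhere in the body cannot be told apart either. The titles call the arrays biological replicates, and the study's text names its control larvae differently from the labels.

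In the eye disc of a normal late larva, a front called the morphogenetic furrow crosses the epithelium and leaves clusters of photoreceptor precursors behind it. The proneural gene ato selects a founder cell, R8, which then recruits the other photoreceptors in a fixed order through signalling by the EGF receptor. The last photoreceptor, R7, needs a further signal, passed from the membrane protein Boss on R8 to the receptor tyrosine kinase Sev. Transcription factors divide the remaining fates among them: Gl acts in all photoreceptors, Sens in R8, Ro in R2 and R5, Lz in the later recruits and cone cells, and the paired zinc finger proteins Salm and Salr in several photoreceptors. Chp is an adhesion protein on the photoreceptor surface. Cpo is an RNA-binding protein of the nervous system at large. Most of these genes are also used elsewhere in the fly, sens in sensory organ precursors, lz in crystal cells of the blood, and salm, salr and cpo in the brain and other tissues.

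The comparison asked which of these transcripts differed in the tumorous complexes. Values are log2 expression after RMA (robust multi-array average), and every change is lgl minus FRT82B with its standard error (SE) from limma, with p-values adjusted over all 18769 probe sets by the Benjamini-Hochberg method. Calls needed both an adjusted p below 0.05 and a log2 change of 1 or more in size. RMA gives no detection call. The median of all probe sets on an array, 3.79 to 3.86, is given as a mark of weak signal, near which changes are compressed.

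Of the photoreceptor specification genes, only cpo had a probe set that was called changed. This was 1 of the 12 probe sets, or 1 of 10 genes, where 1.05% of all tested probe sets were called (0.506% lower, 0.543% higher). That probe set was lower in lgl tissue, and a further probe set of the same gene was higher there without being called. cpo is not among the changed genes that the study lists. The median log2 change of the 12 probe sets was -0.02, against -0.03 for all tested probe sets, and their median absolute change was 0.16, against 0.14. A change above 0 was seen for 6 of the 12, as for 41.8% of all. The arrays of the groups did not overlap for 5 of the 12 probe sets, as for 34.9% of all probe sets. An unadjusted p under 0.05 was reached by 3 of the 12, for 2 probe sets of cpo and for salr, and by 18.4% of all.

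**Figure D1:**
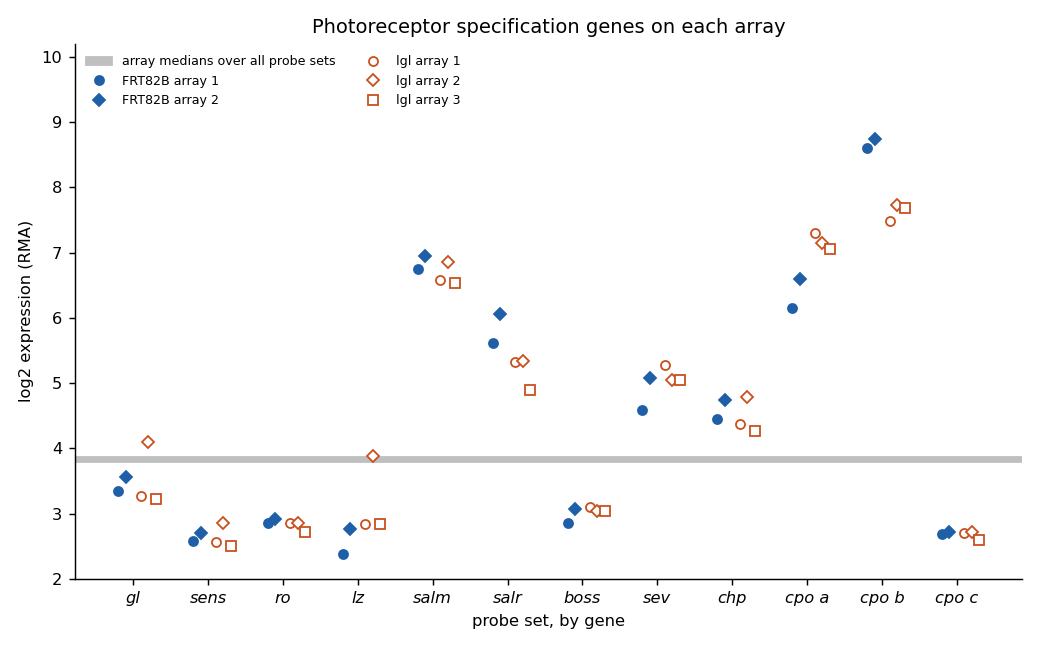
Log2 expression of the 12 probe sets of the photoreceptor specification genes on each array. Filled blue symbols are the 2 FRT82B arrays, open orange symbols the 3 lgl arrays, and the grey band the array medians (3.79 to 3.86). For cpo, a, b and c are the 3 probe sets in order of their numbers. The cpo b values of lgl lie below, and the cpo a values above, both FRT82B values, while sens, ro, boss and cpo c lie under the band on all arrays.

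The arrays themselves set limits. The mutated gene itself, l(2)gl, was at 7.74 and 6.74 in the controls and between 2.24 and 2.44 in the mutants, as the labels would have it. A gap of 1 or more on the log2 scale separated the FRT82B arrays at 994 probe sets, whereas pairs of lgl arrays had 84 to 110 such gaps. The limma fit takes a single spread for both groups, so its SEs, intervals and p-values can understate the spread of the controls. A fit with a lone FRT82B array takes its spread from the lgl arrays only. The 3′ minus 5′ difference of the actin control, a sign of RNA quality, was 0.71 and 0.73 on the FRT82B arrays and 0.36 to 0.58 on the lgl arrays. That of eIF-4a was 1.68 and 2.01 against 1.41 to 1.65. The groups overlapped for GAPDH (1.21 and 1.37 against 1.19 to 1.36) and for 18S rRNA (2.62 and 2.65 against 2.09 to 2.79). The 3′ probe set of 18S rRNA itself read 8.36 on lgl array 3 and 6.07 to 6.63 on the others. The DapX 3′ spike-in control read 7.52 on lgl array 1 and 9.52 to 10.28 on the others. The Lys, Phe and Thr spike-ins were also lowest on lgl array 1, whereas the Bio and Cre ones were not. The part of RNA quality, or of these control differences, in the changes below was not tested. With any lgl array left out, 0 of the 18769 probe sets reached an adjusted p below 0.05, so the loss of a call there says nothing about a single gene. With FRT82B array 1 left out 0.378% of all probe sets were called, and with FRT82B array 2 left out 6.96%. Of the eye field genes, eya read 5.60 to 6.83 on the 5 arrays, dac 7.73 to 8.95, eyg 3.14 to 3.80 and the homeobox gene so 4.23 to 5.18. Since eya and dac are also expressed in the larval brain, these levels do not show how much eye disc each array held. In such bulk samples, fewer cells of a type and less RNA per cell cannot be told apart.

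Among the transcription factors, gl heads the differentiation of all photoreceptors. In the order of the arrays, its probe set read 3.35 and 3.56 in FRT82B and 3.27, 4.10 and 3.23 in lgl. The lgl arrays therefore lay on either side of the controls, with array 2 alone above the array median. The log2 change was 0.08 (SE 0.31, 95% confidence interval -0.74 to 0.89, limma adjusted p = 0.912), so that a change of up to 1.67 times lower or 1.86 times higher was not excluded by the interval. Without lgl array 2 the change was -0.21.

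sens, the zinc finger factor of the R8 founder cell, gave weak signal throughout. It read 2.58 and 2.70 in FRT82B and 2.57, 2.86 and 2.51 in lgl. The groups overlapped, and the change was 0.00 (SE 0.13, interval -0.34 to 0.35, adjusted p = 0.994). For ro, the homeodomain factor of R2 and R5, the FRT82B arrays read 2.85 and 2.91 and the lgl arrays 2.85, 2.85 and 2.71. The lgl values were the lower ones by a margin of under 0.01. With a change of -0.08 (SE 0.07, interval -0.27 to 0.12, adjusted p = 0.599) the probe set was not called. At these levels the intervals describe the measured signal, and transcripts below the reach of the probes would not be seen.

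lz, the Runx factor of the later recruits, had the widest interval of the 12 probe sets. It read 2.38 and 2.76 in FRT82B and 2.84, 3.88 and 2.84 in lgl. All lgl arrays were above both controls, arrays 1 and 3 by a small margin over FRT82B array 2, while lgl array 2 stood 1.03 above the other lgl arrays. The log2 change of 0.62 (SE 0.38, interval -0.40 to 1.63, adjusted p = 0.449) became 0.27 without lgl array 2.

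The blood cell role of lz was set beside this result. Crystal cells, which depend on lz in the fly, are marked by the prophenoloxidases PPO1 and PPO2. PPO2 read 5.52 and 6.57 in FRT82B and 7.53, 7.86 and 6.95 in lgl, a change of 1.40 (SE 0.43, adjusted p = 0.197). PPO1 read 5.02 and 6.74 against 7.14, 7.56 and 6.47, a change of 1.18 (SE 0.62, adjusted p = 0.409). With 1 array left out the change ranged from 0.88 to 1.93 for PPO2 and from 0.32 to 2.04 for PPO1, the lowest without FRT82B array 1 and the highest without FRT82B array 2. For both prophenoloxidases array 2 was the highest of the lgl arrays. The 8 haemocyte markers, PPO1 and PPO2 among them, averaged 5.13 and 5.34 against 5.87 to 6.80. Of these 8, limma called 1 (1.35% of all genes), NimB2, with a change of 1.21 (adjusted p = 0.0214). A change above 0 was seen for 7 of the 8 (41.8% of all probe sets), while that of He was -0.08. Array 2 was the highest lgl array for 8 of the 10 genes of the haemocyte and crystal cell lists together, as for 28.2% of all probe sets. The crystal cell list also held PPO3, a prophenoloxidase of lamellocytes, another blood cell type, and peb, which read 3.51 to 4.27 and 3.43 to 3.55 over the 5 arrays. Of its 4 genes limma called 0 (1.35% of all genes), and 1 had an unadjusted p under 0.05 (22.0% of all genes). The part of blood cells in the lz values was not tested.

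The spalt genes salm and salr encode related zinc finger factors and gave clear signal. For salm the FRT82B arrays read 6.75 and 6.95 and the lgl arrays 6.58, 6.85 and 6.53. The groups overlapped, and the change was -0.19 (SE 0.13, interval -0.54 to 0.16, adjusted p = 0.477). The readings of salr were 5.61 and 6.06 in FRT82B and 5.32, 5.33 and 4.90 in lgl. Here every lgl array was below both controls. The change of -0.65 (SE 0.21, interval -1.21 to -0.09) had an unadjusted p of 0.0308 in limma but an adjusted p = 0.217, and salr was not called. It ranged from -0.88 to -0.42 when any 1 array was left out. The salm value minus the salr value within an array was 1.14 and 0.89 in FRT82B and 1.26, 1.52 and 1.63 in lgl, higher in all lgl arrays by a mean of 0.46. The exact permutation test over arrays gave p = 0.20 (two-sided by doubling the one-sided p, 10 ways to group the arrays). This is the smallest p that this form of the test can give with so few arrays, so it cannot decide whether the groups differed.

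**Figure D2:**
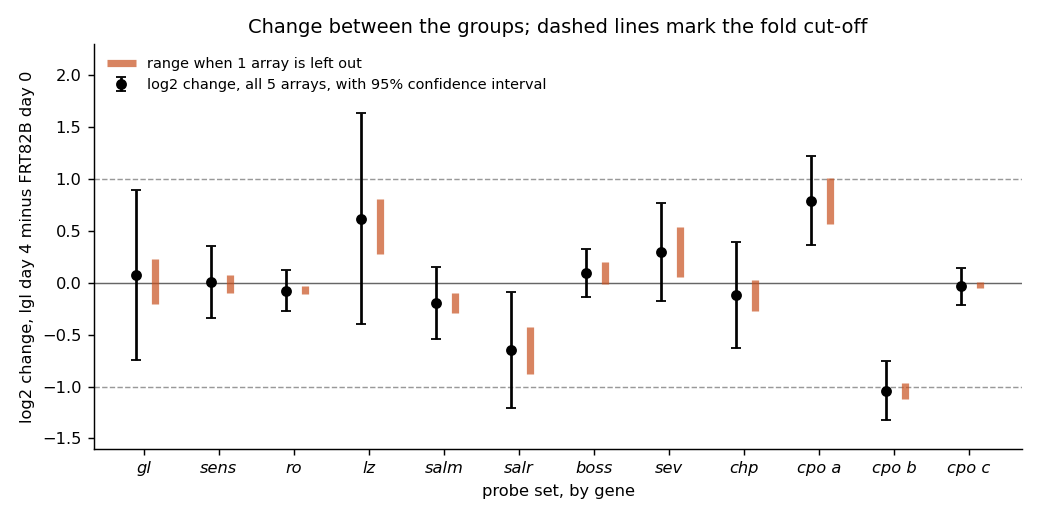
Log2 change of each probe set, lgl day 4 minus FRT82B day 0. Black points with bars are the limma estimates with 95% confidence intervals, orange bars the range of estimates when 1 array is left out, and dashed lines the fold cut-off of 1 in either direction. The intervals of salr, cpo a and cpo b do not reach 0, while that of lz runs from -0.40 to 1.63.

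The R7 signal was followed at both of its ends. boss, the ligand on R8, read 2.86 and 3.08 in FRT82B and 3.10, 3.04 and 3.04 in lgl, all under the array medians. Its change was 0.09 (SE 0.09, interval -0.14 to 0.32, adjusted p = 0.583). sev, the receptor tyrosine kinase, read 4.59 and 5.08 in FRT82B and 5.29, 5.05 and 5.05 in lgl. The lgl readings lay close to FRT82B array 2, and only array 1 of the controls was apart. The sev change of 0.29 (SE 0.18, interval -0.18 to 0.76, adjusted p = 0.441) became 0.54 when FRT82B array 1 was the single control and 0.05 when array 2 was. Neither ligand nor receptor was called.

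chp, whose protein coats photoreceptors, was the 1 product of differentiation among the genes. It read 4.45 and 4.75 in FRT82B and 4.38, 4.78 and 4.27 in lgl, with a change of -0.12 (SE 0.19, interval -0.63 to 0.39, adjusted p = 0.757). The groups overlapped, and array 2 was again the highest of the lgl arrays.

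The probe sets of cpo, the RNA-binding protein gene, differed in direction. The second, 1632644_s_at (cpo b), read 8.60 and 8.75 in FRT82B and 7.48, 7.73 and 7.69 in lgl, so that the groups were 0.87 apart at their nearest arrays. It fell by 1.04 on the log2 scale (SE 0.11, interval -1.32 to -0.76, limma adjusted p = 0.0343), or 2.06 times. Leaving out FRT82B array 1 raised the adjusted p to 0.0658. Without FRT82B array 2 it was 0.0341, with a change of -0.97 that misses the fold cut-off. The change itself stayed between -1.12 and -0.97 with any 1 array left out. The call sat close to the fold cut-off and was lost in 8 of 11 alternatives, of which 4 (those without an lgl array and the replicate block) called 0 probe sets in all and say nothing about cpo b.

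The first, 1624608_s_at (cpo a), read 6.16 and 6.60 in FRT82B and 7.30, 7.15 and 7.06 in lgl. Here every lgl array was above both controls, by 0.46 at the nearest. The change of 0.79 (SE 0.16, interval 0.36 to 1.22) had an unadjusted p of 0.00598 in limma and an adjusted p = 0.107, and was not called. With FRT82B array 1 as the single control the change was 1.01, beyond the fold cut-off that cpo b missed there at -0.97. The third, 1639802_at (cpo c), stayed under the array medians, with 2.69 and 2.72 in FRT82B against 2.70, 2.71 and 2.59 in lgl, a change of -0.03 (SE 0.07, adjusted p = 0.810).

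Set against each other within an array, cpo b exceeded cpo a by 2.44 and 2.15 in FRT82B and by 0.18, 0.58 and 0.62 in lgl. The means were 2.29 ± 0.21 (SD, n = 2) and 0.46 ± 0.25 (SD, n = 3), so that the difference between the probe sets shrank by 1.83 on the log2 scale, more than either spread. The exact permutation test over arrays gave p = 0.20 (two-sided by doubling), again the smallest that this form of the test can give, so it cannot decide. The pair was also chosen after its values were seen. In the array maker's naming, the ending _s_at marks probe sets whose probes match several transcripts. Which transcripts, of cpo or of other genes, each probe set detects was not analysed here. The salr probe set has the same ending.

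Arrays of the same group differed in a pattern shared by the photoreceptor specification genes. FRT82B array 2 was above array 1 at all 12 probe sets, by 0.03 to 0.49, as at 42.8% of all probe sets. The median of this difference was 0.22, where all probe sets had -0.02. Among the lgl arrays, array 3 was lowest or tied for lowest at 11 of the 12, as at 42.3% of all probe sets. Array 2 was highest at 8 of the 12, as at 28.2% of all probe sets. The 12 are not separate genes, since 3 of them belong to cpo. Array 2 exceeded the mean of the other lgl arrays by 0.85 for gl, 1.03 for lz, 0.45 for chp and 0.32 for sens. For ro, lz, sev and boss, 2 of the lgl arrays carried the identical deposited value, as for 21.4% of all probe sets.

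**Figure D3:**
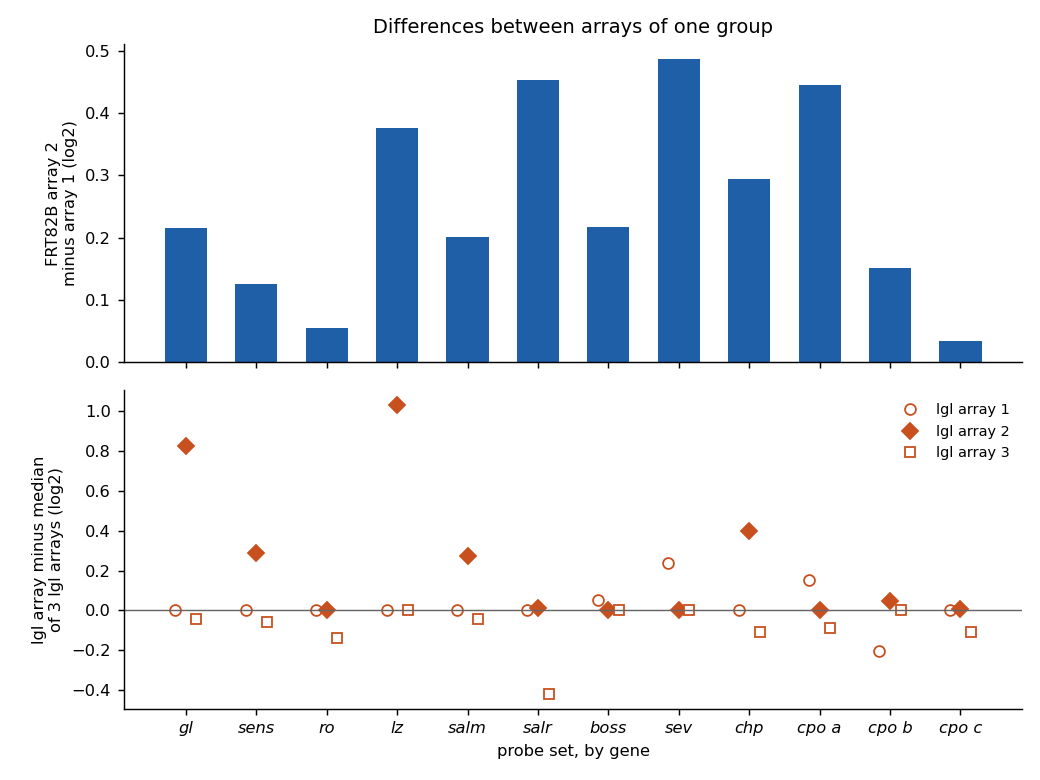
Differences between arrays of one group, on the log2 scale, for the same 12 probe sets. The upper panel gives FRT82B array 2 minus array 1, which is above 0 for every probe set, and the lower panel each lgl array minus the median of the 3 lgl arrays. lgl array 2 stands out at gl (0.83) and lz (1.03).

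The difference between the controls was seen in lists of disc genes and in others. FRT82B array 2 was above array 1 for 15 of 17 measured genes that act beside these in photoreceptor recruitment (median 0.64), 7 of 9 retinal determination genes (median 0.62), 6 of 7 cone and pigment cell genes and all 8 antennal disc markers (median 0.50), of which 4 (B-H1, B-H2, dan and danr) also belong to the recruitment list. It was also above for 6 of 8 neuroblast markers (median 0.29), 5 of 7 sensory organ precursor markers, 3 of 4 optic lobe markers (median 0.44), 3 of 4 crystal cell genes (median 0.60), 4 of 7 glia markers and 4 of 8 haemocyte markers, where the share over all 11952 genes was 43.8%. Among terminal photoreceptor genes it was above for 6 of 15 (median -0.08), among neuron markers for 3 of 8 (median -0.48) and among muscle markers for 0 of 5 (median -1.21). The part of tissue composition in the members' values was not tested.

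Of the 17 other photoreceptor recruitment genes that were measured, 1 fell, 1 rose and 15 were not called, with a median change of 0.36. An unadjusted p under 0.05 in limma was reached by 7 of the 17 (22.0% of all genes). A change above 0 was seen for 13 (41.8% of all probe sets), and the groups did not overlap for 8 (34.9% of all probe sets). These counts leave out fz, which is also on this list but had no named probe set here. The study lists fz among its changed genes, as lower in lgl tissue. In the lists a gene with several probe sets is represented by the brightest, and of all 11952 genes taken so, 1.35% were called and 22.0% had an unadjusted p under 0.05. ato, the proneural gene that selects R8, read 5.53 and 6.05 in FRT82B and 4.25, 4.48 and 4.24 in lgl. All lgl values were below both controls, a change of -1.47 (SE 0.19, limma adjusted p = 0.0499). ato is not among the changed genes that the study lists. pros, a factor of R7 and cone cells that also acts in neuroblast progeny, read 7.60 and 8.63 in FRT82B and 10.66, 10.83 and 10.71 in lgl, a change of 2.62 (SE 0.32, adjusted p = 0.0456). Of the 8 measured neuroblast markers, 4 were called higher (pros among them), and the mean of the 8 was 7.83 and 8.19 in FRT82B against 9.50 to 9.71 in lgl. This list holds pros and was chosen with earlier results of these data known, so it is no separate evidence. The part of neuroblasts in the pros value was not tested. With an lgl array left out, the change was -1.54 to -1.42 for ato and 2.57 to 2.65 for pros. Without FRT82B array 1, ato missed the threshold at -1.72 (adjusted p = 0.0516) and pros was called at 2.10. Sos, an exchange factor that acts downstream of Sev, was named after its values were seen. It read 6.02 and 7.73 in FRT82B against 7.63 to 7.75 in lgl, and its change was 1.69 with FRT82B array 1 as the single control. Also named after its values were seen, svp of the same list had 3 probe sets, all higher in lgl tissue. Their changes were 1.03, 1.15 and 0.90 (limma adjusted p = 0.183, 0.158 and 0.0512), and none was called.

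Of the 9 measured retinal determination genes, limma called 0 and 3 had an unadjusted p under 0.05, with a median change of 0.11. The count of 0 holds for the measured genes only, since hth, also on this list, had no named probe set here. The study lists hth among its changed genes, as lower in lgl tissue. Optix, an eye field factor ahead of the furrow that is also used in the optic lobe, read 6.97 and 7.73 in FRT82B and 8.89, 9.18 and 8.80 in lgl, a change of 1.60 (SE 0.27, adjusted p = 0.0751). With FRT82B array 1 as the single control the change was 1.98. tsh, which acts in eye progenitors, read 7.69 and 7.91 against 6.61, 7.22 and 7.02 (-0.85, SE 0.21, adjusted p = 0.142). so read 4.23 and 5.16 against 4.62, 5.18 and 4.60, with the groups overlapping, and was named after its values were seen.

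Of 24 listed genes of phototransduction and terminal photoreceptor identity, 15 were measured. The rhodopsin genes, ninaE among them, and norpA had no named probe set here. Of the 15, limma called 0 and 4 had an unadjusted p under 0.05. Of these 15 genes, 8 had a mean under 4 over the arrays and 1 a change above 0 (41.8% of all probe sets), with a median of -0.14. rdgC, a phosphatase of the light response, read 6.98 and 6.44 in FRT82B and 5.73, 5.56 and 5.65 in lgl. Its change was -1.06 (SE 0.18, adjusted p = 0.0751), and -1.33 with FRT82B array 1 as the single control. The other 2 probe sets of rdgC, which were dimmer, had changes of -0.24 and -0.13 and were not called. oc, a homeodomain factor of the ocelli and of photoreceptor subtypes, read 4.54 and 5.08 against 4.21, 3.96 and 4.03 (-0.74, SE 0.19, adjusted p = 0.154), a change that ranged from -1.02 to -0.47 with 1 array left out. All 7 cone and pigment cell genes had a change below 0, where 41.8% of all probe sets had one above 0. Their median was -0.36, against -0.03 over all genes, and 0 were called. The deepest changes were those of ct (-0.85, SE 0.21, adjusted p = 0.141) and the adhesion gene hbs (-0.65, SE 0.20, adjusted p = 0.195). With 1 array left out hbs ranged from -0.95 to -0.34. Of these 7, 3 had an unadjusted p under 0.05. sv, a Pax factor of cone cells named after its values were seen, had FRT82B values of 3.70 and 2.78 beside lgl values from 2.62 to 2.76. Its change was -0.56 (adjusted p = 0.403), and -1.02 when FRT82B array 1 was the single control. Neuron markers, which photoreceptors share with the brain, had a median of -0.81 with 0 of 8 called and 6 at an unadjusted p under 0.05 (22.0% of all genes), from a mean of 7.46 and 7.28 in FRT82B to 6.48 to 6.55 in lgl. Their part in the values of these lists was not tested.

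**Figure D4:**
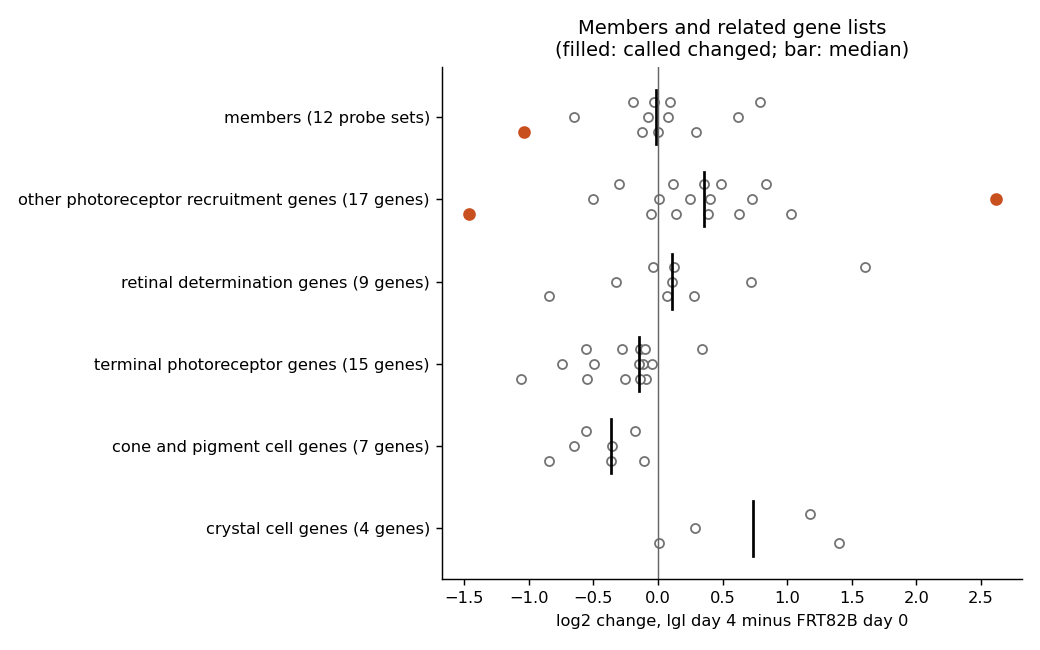
Log2 change, lgl day 4 minus FRT82B day 0, of the 12 probe sets of the photoreceptor specification genes and of the genes of 5 related lists. Each circle is a probe set (a gene in the lists), filled where called changed, and bars are medians. The called points are cpo (-1.04), ato (-1.47) and pros (2.62).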

How the data were processed

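RNA of cephalic complexes was hybridised to Affymetrix Drosophila 2.0 arrays. The authors corrected the background and normalised with RMA (versions: not given in the sources used here). The deposited values are log2 expression for each probe set on each array. RMA equalises array distributions and compresses changes near background. The number of arrays limits the precision.

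After removal of 183 controls, 18769 probe sets were tested, of which 13646 had 1 gene symbol (13634 of these with a current gene), 402 several and 4721 were unnamed here. Groups were compared with limma 3.58.1 (lmFit, eBayes) in R 4.3.3, after the study's methods. For lists, a gene with several probe sets was represented by the one with the highest mean. Beside the 10 genes, up to 4 called genes of each related list were named by size of change, or the 2 with the largest change where fewer than 2 were called. The members and lists were chosen with earlier results of these data known. Alternatives were repeated quantile normalisation, median centring, brighter probe sets, a trend with a robust prior, array weights, a replicate block, no fold cut-off, averaging all probe sets per gene and leaving out each array. A lone FRT82B array takes its spread from the lgl arrays. Simulated data were used to test the procedure. Sequences were not analysed here, nor were list genes without a named probe set.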

Additional observations from a re-analysis of the deposited data

How the results depend on the processing

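Of all probe sets, 197 were called, against 395 of the 9384 brighter probe sets, 305 without a fold cut-off, 12 with array weights, 0 with the replicate number as a block and 0 to 1306 when 1 array was left out (0 without any one lgl array, 71 without FRT82B array 1, 1306 without FRT82B array 2). Of the 12 probe sets of photoreceptor specification genes, 1 was called, cpo b, and 0 with median centring, array weights, the block or any lgl array left out. With FRT82B array 1 as the single control, cpo a (1.01) and not cpo b (-0.97) was beyond the fold cut-off. The 17 other recruitment genes gave 2 calls, 0 with array weights or the block, and 0 to 3 with 1 array left out. Retinal determination and terminal photoreceptor genes gave 0 calls each, 1 each with brighter probe sets and 0 to 1 with 1 array left out, and cone and pigment cell genes 0, and 0 to 1. For cpo b the change was -0.99 with median centring, -1.06 with array weights and -1.07 with the block. Changes near 0 turned sign: cpo c was 0.0047 with quantile normalisation again, 0.015 with median centring and 0.0039 with the block, and with 1 array left out ranged from -0.055 to 0.0039. gl ranged from -0.21 to 0.23, boss from -0.014 to 0.20, chp from -0.27 to 0.027 and sens from -0.10 to 0.071. The causes were not tested. The deviations of same-numbered arrays from their group means correlated at 0.029 and 0.066. With 2 FRT82B arrays these deviations mirror each other, so the values cannot decide whether replicate numbers pair the arrays. lgl array 3 has no FRT82B partner in the block. Signal near background limits gl, sens, ro, lz, boss and cpo c.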
